A study of Mus musculus with 12 samples.

Results

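The nuclear genes for subunits of the respiratory chain and of ATP synthase were followed in 2 classes of mouse retinal ganglion cells, with and without injury of the optic nerve. They were taken as the protein-coding genes whose symbols follow the naming of these subunits: Nduf (complex I), Sdh (complex II), Uqcr and Cyc1 (complex III), Cox4 to Cox8 (complex IV) and Atp5 (complex V). The rule gave 86 of the 38887 listed genes, 35 in complex I, 4 in complex II, 9 in complex III, 20 in complex IV and 18 in complex V. Ndufa4 and Ndufa4l2 were counted with complex IV, and Atp5s, Atp5sl, Cox7a2l and Atp5l-ps1 entered by name although they are no standard subunits of these complexes. RNA was sequenced from 12 libraries, 3 in each of 4 groups. The Opn4 cells were taken from Opn4CreERT/+;R26-tdTomatof/f mice, in which tamoxifen induces a red reporter through a Cre recombinase expressed from the melanopsin gene, after optic nerve crush or after sham surgery. HB9 cells came from HB9:GFP mice, whose transgene labels ON-OFF direction-selective ganglion cells, and were likewise taken after crush or after sham surgery. All mice received tamoxifen (0.124 mg per g) on 5 days that began with postnatal day 21, had surgery at postnatal day 42 and gave retinas 3 days later. Single fluorescent cells were picked by hand after papain digestion, 10 per animal, and 3 such pools made 1 library of 30 cells. Cre recombinase and the red reporter were carried by the Opn4 line alone, so that line and cell class cannot be told apart.

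The respiratory chain of the inner mitochondrial membrane hands electrons from NADH (complex I) or succinate (complex II) through complex III and cytochrome c to oxygen at complex IV, and ATP synthase (complex V) uses the resulting proton gradient to make ATP. Several complex IV subunits come in tissue isoforms: Cox6a2, Cox7a1 and Cox8b are the forms of heart and skeletal muscle, Cox4i2 is abundant in lung, and Cox6b2, Cox7b2 and Cox8c are forms of testis. Retinal ganglion cells have a long unmyelinated axon segment rich in mitochondria, and inherited defects of complex I are a known cause of optic nerve degeneration.

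Promoters of these genes are known for binding sites of NRF-1 and of ETS factors such as GABP, so the RefSeq windows from 250 bases before to 50 bases after the gene start were searched on both strands (build GRCm38.p6, the same coordinates as mm10). A window was found for 69 of the 86 genes, with 75 windows in all, since some genes have more than 1 start. The NRF-1 core CGCATGCG lay in 12% of these windows and in 1.87% of all 32851 windows. The ETS core CCGGAAG lay in 21.3% of them, against 8.86% of all windows. The CRE TGACGTCA lay in 5.33% of the subunit windows and in 1.79% of all windows. The AP-1 motif TGANTCA lay in 9.33% of the subunit windows and in 7.81% of all, and the E-box CAGCTG in 8% of the subunit windows and in 16.3% of all. The NRF-1 and ETS matches shared no base in the windows shown, and a match is a run of letters, not a measured binding site. The 4 windows printed show a housekeeping subunit with both cores, a subunit with the NRF-1 core alone, and a housekeeping subunit and a muscle isoform with neither. They are given from 5′ to 3′ on the strand of the gene, and capitals mark the NRF-1 core and the ETS core or its reverse complement. Cox6a1 lies at chr5:115348909-115349208 on the minus strand, Uqcrc1 at chr9:108936398-108936697 on the plus strand, Atp5b at chr10:128083057-128083356 on the plus strand and Cox7a1 at chr7:30183921-30184220 on the plus strand.
Cox6a1: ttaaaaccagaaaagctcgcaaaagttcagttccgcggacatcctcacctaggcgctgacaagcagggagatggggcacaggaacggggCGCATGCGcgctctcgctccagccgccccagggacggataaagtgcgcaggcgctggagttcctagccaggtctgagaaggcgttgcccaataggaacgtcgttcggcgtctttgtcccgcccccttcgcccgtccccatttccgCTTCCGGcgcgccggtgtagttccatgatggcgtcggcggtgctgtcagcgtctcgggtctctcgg
Uqcrc1: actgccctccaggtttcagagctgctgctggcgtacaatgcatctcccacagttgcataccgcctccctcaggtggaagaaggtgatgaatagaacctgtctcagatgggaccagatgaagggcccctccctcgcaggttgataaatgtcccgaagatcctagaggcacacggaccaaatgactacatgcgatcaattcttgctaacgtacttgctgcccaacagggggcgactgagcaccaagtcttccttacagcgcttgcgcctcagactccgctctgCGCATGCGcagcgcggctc
Atp5b: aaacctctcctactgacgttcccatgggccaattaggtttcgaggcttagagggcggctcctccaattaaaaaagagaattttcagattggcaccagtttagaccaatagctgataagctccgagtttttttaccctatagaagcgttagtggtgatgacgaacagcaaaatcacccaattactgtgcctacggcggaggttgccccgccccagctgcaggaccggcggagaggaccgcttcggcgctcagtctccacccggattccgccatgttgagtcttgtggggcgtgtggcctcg
Cox7a1: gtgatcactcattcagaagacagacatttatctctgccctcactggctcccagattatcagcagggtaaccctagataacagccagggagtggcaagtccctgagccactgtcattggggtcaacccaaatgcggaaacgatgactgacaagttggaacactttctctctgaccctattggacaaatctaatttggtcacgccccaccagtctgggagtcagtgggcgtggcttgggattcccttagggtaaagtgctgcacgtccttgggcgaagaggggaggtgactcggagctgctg

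The deposited values are RPKM, reads divided by gene length and by a library total, and depth can be read from their steps. The totals by which the libraries had been scaled lay between 15104446 and 28195798 reads, and 15021 to 16514 genes reached 1 RPKM. Opn4, which encodes melanopsin, had 1361 ± 63.9 RPKM in Opn4 crush and 1576 ± 281 RPKM in Opn4 sham libraries, against 15.3 ± 11.9 RPKM in HB9 crush and 8.42 ± 10.5 RPKM in HB9 sham libraries (SD, n = 3 each, as for every RPKM below). Mnx1, which encodes HB9, averaged 0 RPKM in Opn4 crush, 0.0481 ± 0.0833 RPKM in Opn4 sham, 2.38 ± 1.09 RPKM in HB9 crush and 32.2 ± 10.5 RPKM in HB9 sham libraries. Opn4 sham replicate 1 and Opn4 crush replicate 1 stood apart from the other libraries on the third principal component, at -83.8 and 61.9, against -34.3 to 33.2 for the rest. RNA of rod photoreceptors was present throughout: the 15 rod markers summed to 1166 to 3390 RPKM in Opn4 crush, 796 to 2113 RPKM in Opn4 sham, 619 to 1017 RPKM in HB9 crush and 308 to 1018 RPKM in HB9 sham libraries, and no marker was at 0 in every library. In pooled RNA, fewer cells of a type and less RNA per cell cannot be told apart. Each comparison used log2(RPKM + 1) of the 18269 genes with at least 1 RPKM in at least 3 libraries, fitted with limma. Changes are log2 differences ± SE on that scale, p-values are two-sided and adjusted over all tested genes by the Benjamini-Hochberg method, and a gene was called at an adjusted p under 0.05. The p-values measure the spread between pools of 3 animals.

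Most of these genes were highly expressed: 55 of the 86 averaged over 100 RPKM across the 12 libraries, and the median gene averaged 139.58 RPKM. The highest means were those of Ndufa4 (974 RPKM), a subunit of complex IV, Atp5b (839 RPKM), the catalytic beta subunit of ATP synthase, and Ndufa1 (735 RPKM), a small membrane subunit of complex I. At the other end, the muscle form Cox8b and the testis form Cox8c were listed at 0 in all 12 libraries. Ndufa4l2, a relative of Ndufa4 that is induced at low oxygen, reached 2.72 RPKM in HB9 crush replicate 3 and at most 0.0492 RPKM elsewhere. These 3 genes missed the limit on low values, so 83 of the 86 were tested. The range within complex I ran between 23.4 RPKM for Ndufb7 and the 735 RPKM of Ndufa1, and in complex II between 46.9 RPKM for Sdhc, a membrane anchor, and 345 RPKM for Sdha, the flavoprotein that oxidises succinate. In complex III Uqcr11 averaged 94.8 RPKM and Uqcrc1, a core protein, 498 RPKM. In complex V Atp5sl averaged 24.3 RPKM, far under Atp5b. Such rankings between genes depend on the gene lengths behind the RPKM, which were 4522 bases for Ndufb7 and 419 bases for Ndufa1. In reads per library, Ndufb7 had 928 to 3625 and Ndufa1 2342 to 13950. Whether these lengths match the transcripts present was not tested.

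By library, the median complex I gene stood at 119.5 ± 22 RPKM in Opn4 crush, 148 ± 17.0 RPKM in Opn4 sham, 158 ± 19.0 RPKM in HB9 crush and 185 ± 38.9 RPKM in HB9 sham libraries. The median complex IV gene showed the same order, with 114 ± 20.7 RPKM in Opn4 crush, 147 ± 45.6 RPKM in Opn4 sham, 162 ± 24.7 RPKM in HB9 crush and 195 ± 69.8 RPKM in HB9 sham libraries. Neighbouring groups in that order overlapped within their standard deviations. Complexes II, III and V did not follow it. The complex II median was 135 ± 3.68 RPKM in Opn4 crush and 182 ± 21.4 RPKM in Opn4 sham libraries. In HB9 cells it was 198 ± 26.3 RPKM after crush and 172 ± 7.09 RPKM after sham. For complex III, HB9 crush libraries, at 222 ± 17.4 RPKM, stood above HB9 sham libraries, at 215 ± 38.5 RPKM. For complex V, Opn4 sham libraries, at 91.9 ± 13.4 RPKM, stood above HB9 crush libraries, at 78.2 ± 13.5 RPKM. Summed over all 86 genes, the level was 13449 ± 1995 RPKM in Opn4 crush, 15947 ± 1979 RPKM in Opn4 sham, 18049 ± 2057 RPKM in HB9 crush and 21294 ± 3679 RPKM in HB9 sham libraries. The HB9 sham libraries were spread most widely, with sums of 24671, 21838 and 17374 RPKM. The rod markers ran in the opposite order, with a mean log2 value of 5.74 ± 0.71 in Opn4 crush, 5.34 ± 0.78 in Opn4 sham, 4.29 ± 0.38 in HB9 crush and 3.79 ± 0.88 in HB9 sham libraries.

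**Figure D1:**
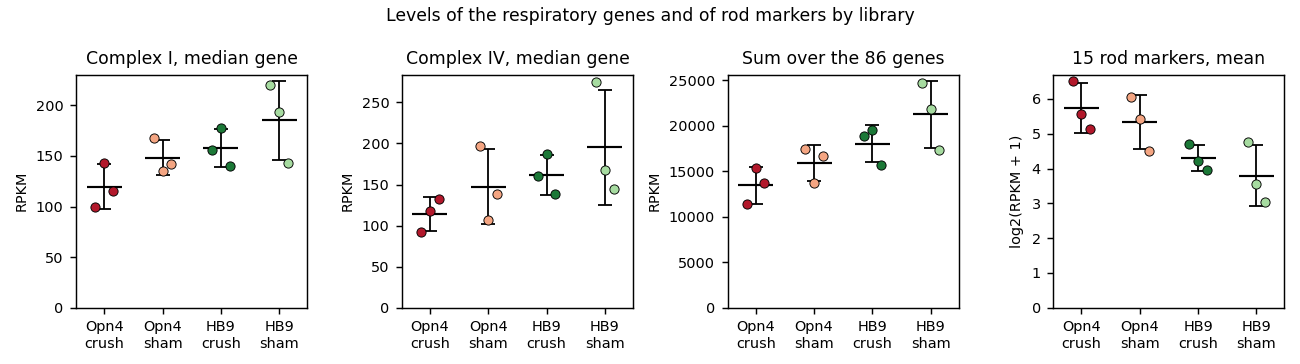
Levels by library in the 4 groups: the median RPKM of the complex I and the complex IV genes, the summed RPKM of all 86 genes, and the mean log2(RPKM + 1) of 15 rod markers. Points are libraries, bars the mean ± SD of 3, and the summed level averages 13449 RPKM in Opn4 crush and 21294 RPKM in HB9 sham libraries, while the rod markers run the other way.

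After optic nerve crush, 1 gene of the respiratory chain rose in both cell classes: Cox6a2 (ENSMUSG00000030785, chr7:128205436-128206366, minus strand), the heart and skeletal muscle form of subunit VIa of cytochrome c oxidase. In HB9 cells it had 155, 189 and 138 RPKM after crush, against 0.0677, 0 and 0.0765 RPKM after sham surgery. In Opn4 cells it had 3.42, 11.7 and 19.5 RPKM after crush and was listed at 0 in all 3 sham libraries. Crush and sham libraries did not overlap in either class, and every HB9 crush library lay above every Opn4 crush library. In reads, these were 2370, 3515 and 2405 in HB9 crush, against 1, 0 and 1 in HB9 sham libraries, and 39, 139 and 272 in Opn4 crush, against none in Opn4 sham libraries. The log2 change was 7.26 ± 0.50 in HB9 cells (adjusted p = 6.29e-06) and 3.39 ± 0.50 in Opn4 cells (adjusted p = 0.00534). With sham libraries at or near 0, the 1 added to each RPKM limits these changes, so the ratios that follow are larger. Their SE rests on a spread shared by all 4 groups, not on that of the Opn4 crush libraries alone. Against a floor of 3 reads over the Opn4 sham group, or 0.0766 RPKM, the mean after crush was at least 151-fold higher in Opn4 cells. In HB9 cells the ratio of the 8290 reads after crush to the 2 after sham, scaled by the library totals, was 3562, with an exact 95% interval of 986 to 29418 that covers counting error only. The rise in HB9 cells was called in all 22 alternative analyses. That in Opn4 cells was not called when the Opn4 libraries were fitted alone (adjusted p = 0.182), and was called in the other 21.

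Cox6a1, the form of subunit VIa used in most tissues, stayed far more abundant. It had 323 ± 25.4 RPKM in Opn4 crush against 404 ± 50.5 RPKM in Opn4 sham libraries, and 594 ± 101 RPKM in HB9 crush against 585 ± 91.2 RPKM in HB9 sham libraries, with log2 changes of -0.32 ± 0.17 (adjusted p = 0.413) and 0.02 ± 0.17 (adjusted p = 0.978). Cox6a2 therefore made up 1.15%, 3.33% and 5.48% of the RPKM of both forms in Opn4 crush libraries and 0% in Opn4 sham libraries. In HB9 cells its share was 19.5%, 22.1% and 22.4% after crush, against 0.00982%, 0% and 0.0147% after sham surgery. No other gene matched a Cox6a2 transcript at 95% identity over 100 bases. The gene lies within the span of Itgad, an integrin gene on the opposite strand, which averaged 0.518 ± 0.876 RPKM in Opn4 crush, 0.5 ± 0.853 RPKM in Opn4 sham, 0.133 ± 0.071 RPKM in HB9 crush and 0.0173 ± 0.0154 RPKM in HB9 sham libraries. Of the muscle genes, Ckm averaged 0.951 ± 1.12 RPKM in Opn4 crush and 0.25 ± 0.432 RPKM in Opn4 sham libraries, and 0.0623 ± 0.108 RPKM in HB9 crush and 0.294 ± 0.509 RPKM in HB9 sham libraries. Myh2 was listed at 0 in all Opn4 libraries and averaged 0.664 ± 1.15 RPKM in HB9 crush and 0.0204 ± 0.0262 RPKM in HB9 sham libraries. Tnnt3 was listed at 0 in all crush libraries, and averaged 1.08 ± 0.936 RPKM in Opn4 sham and 0.0584 ± 0.101 RPKM in HB9 sham libraries. The whole list of 6 muscle and erythrocyte genes, in which Acta1 held most of the level, summed to 8.22 to 34.4 RPKM in Opn4 crush and 11 to 17 RPKM in Opn4 sham libraries, and to 9.06 to 21.7 RPKM in HB9 crush and 11.5 to 18.1 RPKM in HB9 sham libraries.

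The crush effects on Cox6a2 differed between the classes by -3.87 ± 0.71 (log2, Opn4 minus HB9, adjusted p = 0.0268). With both sham groups at or near 0, this restates the difference between the crush libraries. Cox6a2 was the only called gene of the 83 in this contrast, in which 0.525% of all tested genes were called lower and 0.29% higher in Opn4 cells. At an unadjusted p under 0.05, 2 of the 83 genes were higher and 4 lower. The call was lost in 10 of 21 alternatives: with a pseudocount of 0.1 or no filter on low values, with limma voom on recovered reads, and without any 1 of the 3 HB9 crush libraries, the 3 HB9 sham libraries or Opn4 sham replicate 3. The highest adjusted p was 0.366 over all of these and 0.0779 when a library was left out. Over the 83 genes the median difference of effects was -0.06, against -0.13 over all tested genes.

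**Figure D2:**
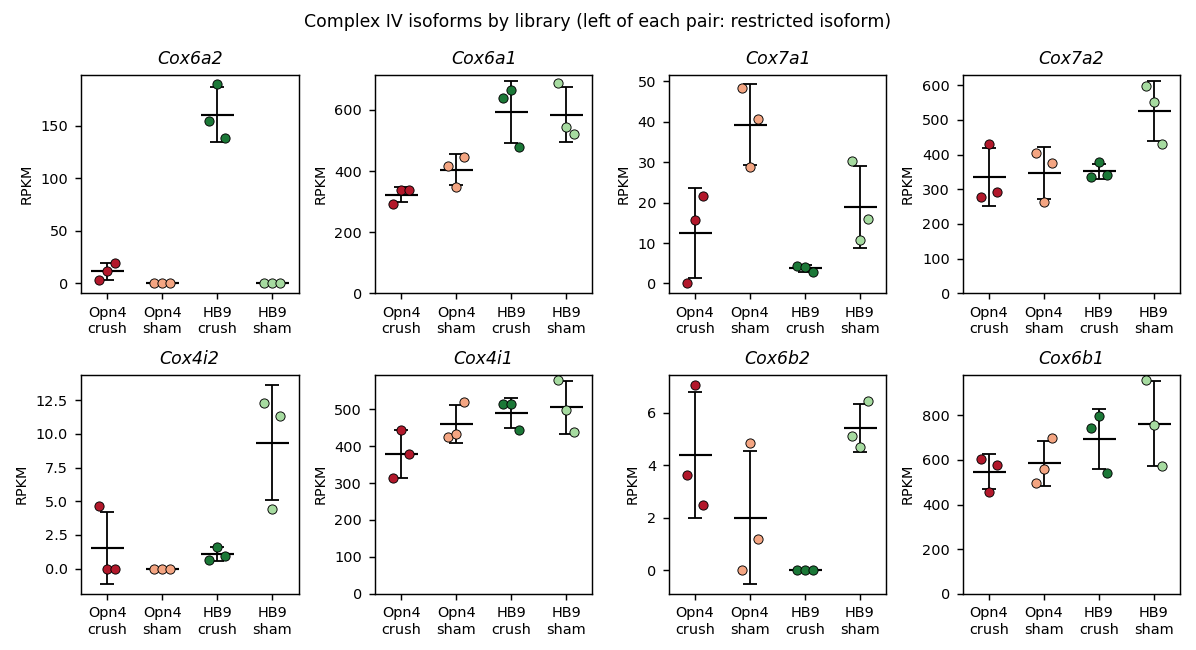
RPKM by library of 4 restricted complex IV isoforms, each beside a widely expressed form, in Opn4 and HB9 cells after crush or sham surgery. Points are libraries and bars the mean ± SD of 3. Cox6a2 reaches 138 to 189 RPKM in HB9 crush and 3.42 to 19.5 RPKM in Opn4 crush libraries and is near 0 in all sham libraries.

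In HB9 cells 3 other restricted isoforms stood lower after crush, 1 of them past the threshold. Cox6b2 (chr7:4751792-4753094, minus strand), the testis form of subunit VIb, was listed at 0 in all 3 HB9 crush libraries, against 5.11, 4.69 and 6.45 RPKM in HB9 sham libraries. It fell by 2.67 ± 0.58 on the log2 scale in HB9 cells (adjusted p = 0.0151), a call lost without any 1 HB9 crush library or without HB9 sham replicate 3 (highest adjusted p = 0.0652). In Opn4 cells Cox6b2 had 3.65, 7.07 and 2.47 RPKM after crush, against 0, 4.84 and 1.18 RPKM after sham, and the groups overlapped (1.12 ± 0.58, adjusted p = 0.412). The difference of the effects was 3.79 ± 0.82 (adjusted p = 0.0558).

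Cox4i2, the lung form of subunit IV, had 0.6, 1.62 and 0.959 RPKM in HB9 crush libraries, against 12.3, 4.43 and 11.3 RPKM in HB9 sham libraries. These groups did not overlap, and the change of -2.25 ± 0.63 missed the threshold (adjusted p = 0.054). In Opn4 cells it was present in 1 library, at 4.61 RPKM in Opn4 crush replicate 1, and at 0 in the other 2 Opn4 crush and all 3 Opn4 sham libraries. Cox7a1 (chr7:30184171-30186028, plus strand), the muscle form of subunit VIIa, showed the lower level in both classes. It had 0, 15.8 and 21.6 RPKM in Opn4 crush against 48.5, 28.7 and 40.8 RPKM in Opn4 sham libraries, and 4.25, 4.19 and 2.8 RPKM in HB9 crush against 30.4, 10.7 and 15.9 RPKM in HB9 sham libraries. Crush and sham libraries did not overlap in either class, but neither change was called (-2.45 ± 0.89 in Opn4 cells, adjusted p = 0.229, and -1.97 ± 0.89 in HB9 cells, adjusted p = 0.254). Cox6a2 and Cox7a1, both forms of striated muscle, thus stood on opposite sides of 0.

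Among the 83 tested genes, Cox6a2 was the only one called higher after crush in either class, against 0.69% of all tested genes in Opn4 cells and 3.84% in HB9 cells. In Opn4 cells none was called lower by limma, against 0.421% of all tested genes, and 16 were lower at an unadjusted p under 0.05. Without Opn4 crush replicate 2, 2 of the genes were called, 1 in each direction. In HB9 cells Cox6b2 was the only one called lower, against 2.57% of all tested genes, and 14 were lower at an unadjusted p under 0.05. The number called in HB9 cells was 1 without any 1 HB9 crush library and 4 without Opn4 crush replicate 1, which enters the shared estimate of spread.

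The changes were mostly small and below 0. In Opn4 cells 72 of the 83 were negative, with a median of -0.23 against -0.02 over all tested genes. The median was -0.25 in complex I, -0.19 in complex II, -0.16 in complexes III and IV and -0.29 in complex V. Without both Opn4 libraries that stood apart, the median over the 83 genes was -0.03. In HB9 cells 65 of the 83 were negative, with a median of -0.26 against 0.11 over all tested genes. Complex IV had the lowest median there (-0.51), followed by complex V (-0.30), complex I (-0.27) and complex III (-0.15), and complex II had a median of 0.20. When each library was centred on its median gene, the median over all tested genes in HB9 cells moved by over 0.1, to -0.07, and that of the 83 genes was -0.44, with 77 negative. All tested genes in HB9 cells split into 529 higher and 787 lower with centring, against 702 higher and 470 lower as deposited. With centring, 1 subunit gene was called higher and 5 lower. For the difference of effects, centring gave 73 higher and 75 lower genes, against 53 higher and 96 lower.

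Core subunits of the complexes varied in size of change. Of complex I, Ndufs1, an iron-sulfur subunit, changed by -0.09 ± 0.20 in Opn4 cells and -0.29 ± 0.20 in HB9 cells. Sdha changed by -0.02 ± 0.19 in Opn4 cells and -0.18 ± 0.19 in HB9 cells. Atp5a1, the alpha subunit of ATP synthase, changed by -0.07 ± 0.16 in Opn4 cells and -0.18 ± 0.16 in HB9 cells. None of these was called, with adjusted p-values between 0.516 and 0.989. Among core subunits chosen after their values were seen, Ndufs8, another iron-sulfur subunit of complex I, had 35.9, 143 and 68.5 RPKM in Opn4 crush against 259, 137 and 167 RPKM in Opn4 sham libraries. Its groups overlapped, and its change of -1.34 ± 0.38 was the lowest of complex I in Opn4 cells but was not called (adjusted p = 0.118). Cyc1, of complex III, changed by -0.62 ± 0.19 in Opn4 cells (adjusted p = 0.156). In HB9 cells Ndufs8 changed by -0.37 ± 0.38 and Cyc1 by -0.05 ± 0.19, with adjusted p-values of 0.687 and 0.934.

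The summed level of ganglion cell markers was lower after crush: the 6 markers summed to 3728 to 4410 RPKM in Opn4 crush against 4639 to 5024 RPKM in Opn4 sham libraries, and to 4296.5 to 4844 RPKM in HB9 crush against 7099 to 7967 RPKM in HB9 sham libraries. Their median change was -0.08 in Opn4 cells, with Rbpms alone called lower, and -0.82 in HB9 cells, with Rbpms and Sncg called lower. Slc17a6 averaged 215 ± 53.1 RPKM in Opn4 crush against 208 ± 8.56 RPKM in Opn4 sham libraries. In HB9 cells it averaged 870 ± 90.5 RPKM after crush against 862 ± 139 RPKM after sham. Summed levels of markers of some other cells also differed in range between HB9 crush and HB9 sham libraries. The 7 amacrine markers summed to 50.5 to 131 RPKM in HB9 crush against 3.10 to 26.2 RPKM in HB9 sham libraries. The 7 markers of Muller glia and astrocytes summed to 41.2 to 46.1 RPKM in HB9 crush against 13.2 to 18.2 RPKM in HB9 sham libraries. For the 6 microglia markers, 2 of them at 0 in every library, the sums were 5.20 to 5.47 RPKM in HB9 crush against 3.04 to 3.93 RPKM in HB9 sham libraries. None of these ranges overlapped in HB9 cells. Those of the 7 bipolar markers did, at 22.2 to 77.5 RPKM in HB9 crush against 57.5 to 77.7 RPKM in HB9 sham libraries. The 8 cone markers overlapped as well, at 5.99 to 115 RPKM in HB9 crush against 9.41 to 28.0 RPKM in HB9 sham libraries. All 7 amacrine markers were tested, but only 3 of the glial and 2 of the microglia markers. Only 1 of the tested markers of these 3 lists was called in HB9 cells, the amacrine marker Slc6a9. This glycine transporter was higher after crush (3.6 ± 0.76, adjusted p = 0.0123). In Opn4 cells the sums overlapped: 47.4 to 63.5 RPKM in crush against 21.1 to 102 RPKM in sham libraries for amacrine markers, 16.6 to 231 against 21.4 to 47.3 RPKM for Muller glia and astrocytes, and 0.614 to 14.6 against 2.62 to 5.85 RPKM for microglia. Of the markers of the classes themselves, Mnx1 was called lower after crush in HB9 cells (-3.30 ± 0.43, adjusted p = 0.000471). Eomes, a marker of Opn4 cells, was called higher there (2.32 ± 0.32, adjusted p = 0.000837), and Opn4 and Cartpt were not called. None of these class markers was called after crush in Opn4 cells. The part of all these markers in the changes was not tested.

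**Figure D3:**
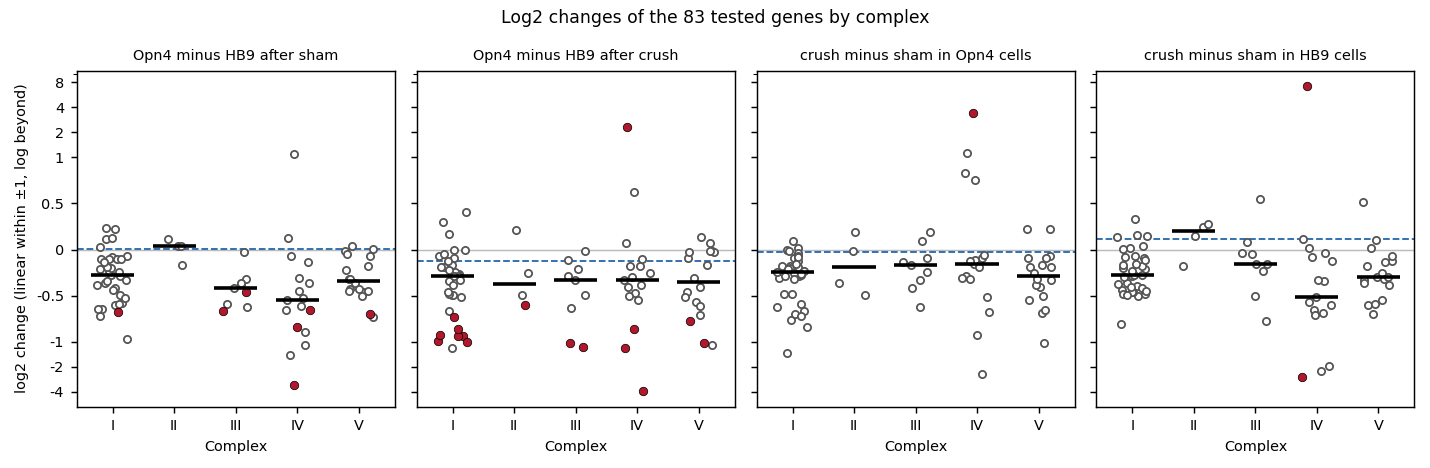
Log2 changes of the 83 tested genes by complex in 4 comparisons, on an axis that is linear between -1 and 1 and logarithmic beyond. Each point is a gene, filled points are called at an adjusted p under 0.05, black bars are medians per complex and the dashed line is the median of all tested genes. Cox6a2 stands highest in both crush comparisons, at 3.39 and 7.26, and most genes lie under the dashed line in all 4.

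Between the classes after sham surgery, no gene of the 83 was called higher in Opn4 cells and 7 were called lower, against 5.82% higher and 5.93% lower of all tested genes. None was higher at an unadjusted p under 0.05 and 23 were lower. The change was negative for 71 of the 83, with a median of -0.36 against 0.01 over all tested genes. Medians were -0.27 in complex I, 0.04 in complex II, -0.42 in complex III, -0.55 in complex IV and -0.34 in complex V. The lower genes were Ndufv1 of complex I, Uqcrc1 and Uqcrq of complex III, Cox4i2, Cox5a and Ndufa4 of complex IV, and Atp5b of complex V.

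Atp5b (chr10:128083273-128090391, plus strand) had 787, 614 and 616 RPKM in Opn4 sham against 1154, 1124 and 985 RPKM in HB9 sham libraries, a change of -0.70 ± 0.15 (adjusted p = 0.00987). Cox4i2 (chr2:152754173-152765037, plus strand) was listed at 0 in all Opn4 sham libraries, against the 4.43 to 12.3 RPKM given above for HB9 sham (-3.27 ± 0.63, adjusted p = 0.00458). Cox4i1, its widely expressed counterpart, averaged 459 ± 51.6 RPKM in Opn4 sham and 505 ± 71.6 RPKM in HB9 sham libraries and was not called (-0.13 ± 0.16, adjusted p = 0.675). Both calls, Atp5b and Cox4i2, held in every alternative that could be fitted for them. Ndufv1, the subunit that binds NADH, had 138, 139 and 141 RPKM in Opn4 sham against 248, 232 and 194 RPKM in HB9 sham libraries (-0.68 ± 0.17, adjusted p = 0.0175). Cox5a, a nuclear subunit on the matrix side of complex IV, had 533, 467 and 442 RPKM in Opn4 sham against 1031, 959 and 638 RPKM in HB9 sham libraries (-0.84 ± 0.24, adjusted p = 0.0424). The groups did not overlap for any of these 4 genes. For Ndufa4 the change was -0.66 ± 0.18 (adjusted p = 0.0315), for Uqcrq, a small ubiquinone-binding subunit, -0.67 ± 0.20 (adjusted p = 0.0495) and for Uqcrc1 -0.46 ± 0.13 (adjusted p = 0.0426). The number called fell to 2 without HB9 sham replicate 1 and to 2 without HB9 sham replicate 2. When each of the 12 libraries was left out in turn, the Ndufv1 call was lost in these cases alone (highest adjusted p = 0.0747). Those of Cox5a, Ndufa4, Uqcrc1 and Uqcrq were lost in 4 to 8 of the 12 cases, with a highest adjusted p of 0.179, and for at least 1 of these genes by leaving out any 1 library other than Opn4 crush replicates 1 and 2.

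Between the classes after crush, 1 gene was called higher in Opn4 cells and 15 were called lower, against 5.12% higher and 7.6% lower of all tested genes. The change was negative for 74 of the 83, with a median of -0.33 against -0.12 over all tested genes, and medians lay between -0.29 and -0.37 in every complex. Of complex I, Ndufv1, Ndufa1, Ndufa5, Ndufa9, Ndufa10, Ndufb6 and Ndufb9 were lower, of complex II Sdhd, of complex III Cyc1 and Uqcrq, of complex IV Cox5a, Cox6a1 and Cox6a2, and of complex V Atp5b and Atp5g1. The gene called higher was Cox6b2 (2.34 ± 0.58, adjusted p = 0.0193), which was at 0 in all HB9 crush libraries. Atp5b, Cox5a, Ndufv1 and Uqcrq were called lower both after crush and after sham. These comparisons use different libraries but 1 shared estimate of spread per gene, so their calls are not independent.

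Cox6a2 was lower in Opn4 cells by -3.94 ± 0.50 (log2, adjusted p = 0.000303), with the RPKM given above. Cyc1 (chr15:76343523-76345934, plus strand), the heme subunit of complex III that passes electrons to cytochrome c, had 173, 191 and 128 RPKM in Opn4 crush against 382, 347 and 356 RPKM in HB9 crush libraries (-1.15 ± 0.19, adjusted p = 0.00174). Uqcrq had 86.5, 131 and 99.8 RPKM in Opn4 crush against 219, 215 and 206 RPKM in HB9 crush libraries (-1.03 ± 0.20, adjusted p = 0.0054). In neither of these complex III genes, for a catalytic and an accessory subunit, did the classes overlap. They were the only 2 called of the 9 tested genes of complex III. Ndufv1 had 121, 162 and 116 RPKM in Opn4 crush against 256, 271 and 223 RPKM in HB9 crush libraries (-0.92 ± 0.17, adjusted p = 0.00316). Ndufa10, an accessory subunit of complex I, had 96.6, 178 and 154 RPKM in Opn4 crush against 278, 307 and 252 RPKM in HB9 crush libraries (-1.0 ± 0.20, adjusted p = 0.00607). All Opn4 crush libraries lay under all HB9 crush libraries in both of these genes. Cox5a (chr9:57521232-57532424, plus strand) had 206, 351 and 372 RPKM in Opn4 crush against 834, 691 and 537 RPKM in HB9 crush libraries (-1.17 ± 0.24, adjusted p = 0.00774). Cox6a1 had 294, 338 and 337 RPKM in Opn4 crush against 638, 667 and 479 RPKM in HB9 crush libraries (-0.87 ± 0.17, adjusted p = 0.00455). Atp5b had 557, 688 and 526 RPKM in Opn4 crush against 1090.3, 1082 and 848 RPKM in HB9 crush libraries (-0.77 ± 0.15, adjusted p = 0.00605). These subunits of complexes IV and V were again separated without overlap.

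The other lower genes had smaller or less stable differences after crush. Sdhd, the small membrane anchor of complex II, had 112, 102 and 109.5 RPKM in Opn4 crush against 184, 168 and 142 RPKM in HB9 crush libraries (-0.60 ± 0.17, adjusted p = 0.0314). Atp5g1 encodes the same mature c subunit of ATP synthase as Atp5g2 and Atp5g3, and its change was -1.02 ± 0.28 (adjusted p = 0.0298). Ndufa1, Ndufa5, Ndufa9, Ndufb6 and Ndufb9, all accessory subunits of complex I, changed by -0.73 to -1.0 with adjusted p-values between 0.0152 and 0.0421. The number called was 8 without HB9 crush replicate 1 and 8 without HB9 crush replicate 2. Atp5b, Cox5a, Cox6a1, Cox6a2, Cyc1 and Ndufv1 were called in all 22 alternatives, and Ndufa10 and Uqcrq in 21. The calls of Cox6b2, Atp5g1, Sdhd, Ndufa1, Ndufa5, Ndufa9, Ndufb6 and Ndufb9 were lost in 3 to 7 of the 12 cases with 1 library left out, with a highest adjusted p of 0.146, and any 1 crush library, Opn4 sham replicate 3 and HB9 sham replicates 1 and 2 each did so for at least 1 gene. Subunits not called included Sdha, with 358 ± 58.8 RPKM in Opn4 crush and 314 ± 81.0 RPKM in HB9 crush libraries (0.21 ± 0.19, adjusted p = 0.534), Uqcrfs1, the Rieske iron-sulfur protein (-0.11 ± 0.23, adjusted p = 0.803), and Uqcrc2, a core protein (-0.64 ± 0.20, adjusted p = 0.0514).

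Rod markers were higher in Opn4 libraries, as given above, with 2 of 15 called higher in Opn4 cells in each class comparison and a median change of 1.40 after sham and 1.29 after crush. Of the 6 ganglion cell markers, 4 were called lower in Opn4 cells after sham (Pou4f1, Thy1, Slc17a6 and Nefl), with a median of -1.20. After crush 3 were lower (Pou4f1, Slc17a6 and Nefl) and 1 was higher (Sncg), with a median of -0.58. Of the 7 amacrine markers, Gad2, which makes GABA, was higher in Opn4 cells after sham (3.86 ± 0.78, adjusted p = 0.00601) and after crush (2.98 ± 0.78, adjusted p = 0.0246). Chat, which makes acetylcholine, was higher after sham (2.56 ± 0.57, adjusted p = 0.0109). Its change was 0 between the classes after crush and between crush and sham in HB9 cells. The Chat call thus rests on the Opn4 sham libraries, which also carried the gene past the filter on low values. The median change of the amacrine list was only 0.17 after sham and 0 after crush. Gad1 had negative changes and was not called (-0.76 after sham, adjusted p = 0.817, and -2.47 after crush, adjusted p = 0.324). The part of ganglion cell and amacrine markers in the class differences was not tested.

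With the mean rod marker level as a covariate, 4 subunit genes were called after sham and 7 after crush, all lower in Opn4 cells. Atp5b and Cox4i2 after sham, and Atp5b, Cox5a, Cox6a1, Cox6a2, Cyc1 and Ndufv1 after crush, were among them. Median changes of the 83 genes with this covariate were -0.44 after sham and -0.45 after crush. Since neither counting rule nor strand is given in the sources used here, shared sequence was checked. Of the 86 genes, 35 had another gene with 95% identity over 100 bases, for 20 of them a pseudogene. Of the 19 genes called in any comparison these were Atp5g1, with 12 such genes and a pseudogene among them, and Cox5a, Ndufb6 and Ndufb9 with 1 each, so the values of these 4 are less certain. Cox5a and Ndufb6 overlapped a gene on the opposite strand, as did 22 of the 86 in all. The match and the overlap can be the same gene, so not every match is a copy elsewhere. For Cox5a the overlapping Gm26631 was the only match, and for Cox4i1 the overlapping Emc8 was. Atp5l-ps1 was among the 11 matches of Atp5l but had none listed for itself, so the count of 35 may be too low. Reads of Atp5l may have been counted for Atp5l-ps1, which was not tested.

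**Figure D4:**
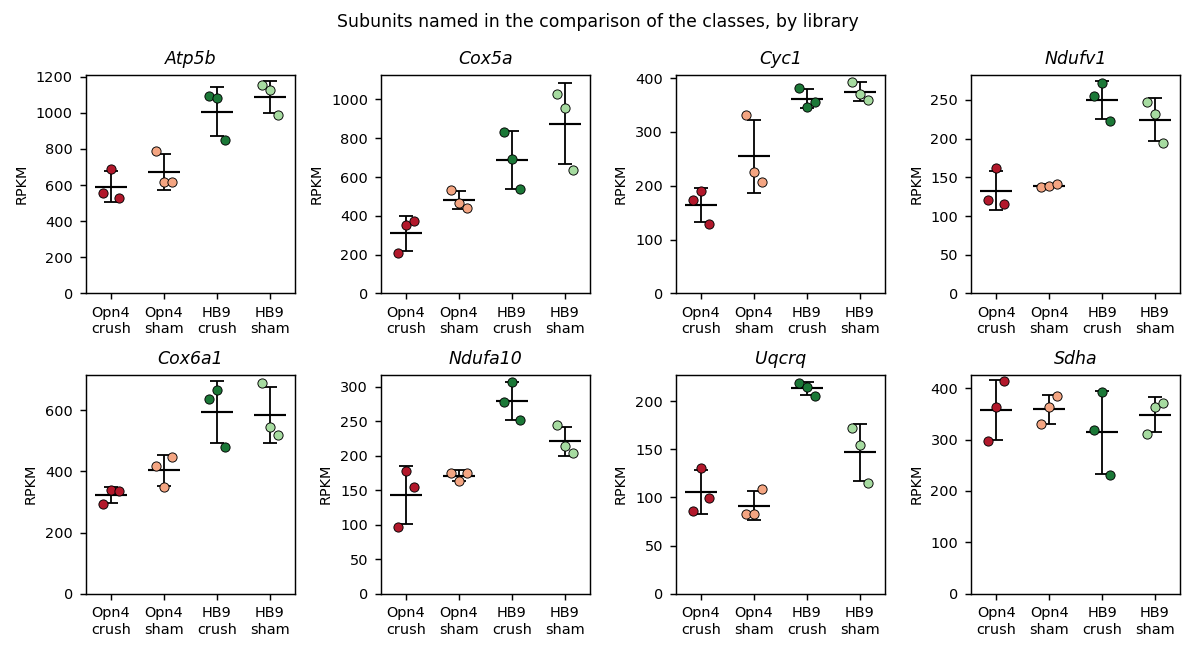
RPKM by library of 8 subunits of complexes I to V in Opn4 and HB9 cells after crush or sham surgery, with the mean ± SD of 3 libraries as bars. Atp5b lies between 526 and 787 RPKM in all Opn4 libraries and between 848 and 1154 RPKM in all HB9 libraries, while Sdha overlaps between the classes.

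Where a subunit has several genes, 1 form dominated the RPKM in every library. Cox4i1 made up 97.5% to 100% of the RPKM of both subunit IV genes, and Cox6b1 made up 98.5% to 100% of subunit VIb. Cox7a1 held 2.49 ± 2.31% of the subunit VIIa group with Cox7a2 and Cox7a2l in Opn4 crush libraries and 7.38 ± 0.133% in Opn4 sham libraries. In HB9 cells its share was 0.751 ± 0.115% after crush and 2.77 ± 1.16% after sham surgery. Cox7b2 was above 0 in 3 libraries, 1 each of Opn4 crush, HB9 crush and HB9 sham, at 3.83, 7.2 and 8.76 RPKM, and Cox7b held all of the level in the other 9. Of the 3 genes for the c subunit of ATP synthase, Atp5g3 made up 79.9 ± 3.09% in Opn4 crush, 83.9 ± 3.64% in Opn4 sham, 75.9 ± 1.1% in HB9 crush and 80.3 ± 0.987% in HB9 sham libraries. Atp5g1 made up 6.18 ± 0.858% in Opn4 crush, 4.87 ± 0.455% in Opn4 sham, 12 ± 1.57% in HB9 crush and 7.06 ± 1.27% in HB9 sham libraries. The HB9 crush libraries, at 11% to 13.8%, were thus above all others in the share of Atp5g1. The size of these shares depends on recovered lengths of 4912 bases for Atp5g1, 441 for Atp5g2 and 2181 for Atp5g3. In HB9 crush replicate 2, for example, the reads were 7175 for Atp5g1, 537 for Atp5g2 and 17190 for Atp5g3.

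Genes that work beside the complexes were read from fixed lists. Cycs, the somatic cytochrome c, averaged 65.7 ± 17.0 RPKM in Opn4 crush against 142 ± 14.4 RPKM in HB9 crush libraries, and 88.5 ± 6.86 RPKM in Opn4 sham against 194 ± 25.3 RPKM in HB9 sham libraries. It was lower in Opn4 cells after crush (-1.13 ± 0.20, adjusted p = 0.00324) and after sham (-1.12 ± 0.20, adjusted p = 0.00311), and the testis form Cyct was at 0 throughout. Esrra, an orphan nuclear receptor that drives mitochondrial genes, was lower in Opn4 cells after crush (-1.88 ± 0.43, adjusted p = 0.0122) and after sham (-2.04 ± 0.43, adjusted p = 0.00757). Ppargc1a, a coactivator of mitochondrial biogenesis, averaged 3.97 ± 4.69 RPKM in Opn4 crush against 26.8 ± 3.4 RPKM in HB9 crush libraries and was lower in Opn4 cells after crush (-3.03 ± 0.68, adjusted p = 0.0118). After sham its change was -1.34 ± 0.68 (adjusted p = 0.251). Nrf1, Gabpa and Tfam, factors that act on respiratory genes or mitochondrial DNA, were not called in any of the 5 comparisons.

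Other mitochondrial genes were counted against the 7.6% of all tested genes lower in Opn4 cells after crush and the 5.93% lower after sham. Over all these lists, the ones just given included, 25 of the 159 tested genes were lower after crush and 11 after sham. Of the 12 tested citrate cycle genes, 6 were lower in Opn4 cells after crush, with Mdh2 at -0.81 ± 0.15 (adjusted p = 0.00398) and Cs, citrate synthase, at -0.63 ± 0.16 (adjusted p = 0.0217), and 2 were lower after sham (Idh3a and Ogdh). Of the 77 mitochondrial ribosomal protein genes, 10 were lower after crush, and after sham 1 was higher and 1 lower. Of the 41 tested assembly factors, 2 were lower after crush (Atpaf1 and Ndufaf1) and 2 after sham (Sco2 and Ndufaf3). Of 18 genes for membrane transport and shape, 4 were lower after crush and 4 after sham. Between crush and sham in Opn4 cells, limma called none of the 159 genes, against 0.69% higher and 0.421% lower of all tested genes, and 22 had an unadjusted p under 0.05. In HB9 cells, against 3.84% higher and 2.57% lower of all tested genes, it called Slc25a4, an ADP and ATP carrier (-0.65 ± 0.12, adjusted p = 0.00493), and Vdac1, a pore of the outer membrane (-0.74 ± 0.19, adjusted p = 0.0337), lower, and the mitochondrial ribosomal gene Mrps26 higher.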

How the data were processed

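Per the submitters' processing notes, TopHat2 2.0.11, Bowtie, edgeR 3.14.0 and build mm10 were used; the role of each, the counter, the annotation and strandedness are not given in the sources used here. The deposited values are RPKM, made by the authors per gene and library; gene names and coordinates were taken from the same table. RPKM fell on whole multiples of 1 read per gene (all checked short-gene values within 0.01 read), which gave the scaling totals, read numbers and gene lengths. Recovered reads came to 226.7% to 244.2% of those totals, a gap the sources used here do not explain, and recovered reads served for floors, ratios and 1 alternative only.

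Tests used limma 3.58.1 in R 4.3.3 (lmFit, 4 group means over all 12 libraries, eBayes with trend) on log2(RPKM + 1), with genes at 1 RPKM or more in at least 3 libraries, two-sided, adjusted by Benjamini-Hochberg over 18269 genes, threshold 0.05. The pseudocount of 1 damps changes of low genes. The 5 comparisons were the classes (Opn4 minus HB9) under sham and under crush, crush minus sham in Opn4 and in HB9 cells, and the difference of the crush effects. The fit and the read recovery were tested on simulated data. Copies were searched with BLAST 2.17.0 against transcripts of the same build; promoter windows are RefSeq's, GRCm38.p6. Figures used matplotlib 3.10.9. Intervals and floors are for counting error alone: the cDNA was amplified and carried no molecular identifiers, so reads are not independent.

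The genes, lists and tests were chosen with earlier results of these data known. Named were the isoform sets, core subunits, genes past the threshold, the 3 highest and 3 lowest means, and Cycs, Cyct, Ppargc1a, Esrra, Nrf1, Tfam and Gabpa; context genes beyond these were named after their values were seen. Alternatives covered the pseudocount, the filter, centring, library weights, separate fits, the replicate number, a rod covariate, omitted libraries and limma voom on recovered reads. Mitochondrially encoded genes were not analysed here. Not every gene of the naming rule is reported here.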

Additional observations from a re-analysis of the deposited data

Results flagged for a closer look

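Cox6a2 was singled out because its response to crush differed in size between the classes by a test of the difference itself. The log2 change after crush was 3.39 ± 0.50 in Opn4 cells and 7.26 ± 0.50 in HB9 cells, and the difference of the effects (Opn4 minus HB9) was -3.87 ± 0.71 (limma, adjusted p = 0.0268). The direction was the same in both classes, with all 3 crush libraries above all 3 sham libraries in each, and the sham libraries of both were at or near 0. The difference of the effects therefore restates the difference between the crush libraries (-3.94 ± 0.50) and is not separate evidence. Only its crush libraries carried Cox6a2 past the filter on low values. The difference was past the threshold in 11 of 21 alternatives, and its adjusted p ran up to 0.366.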

How the results depend on the processing

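Of 27 calls in 19 genes, 9 held in every alternative, 15 were lost when some 1 library was left out, and none reversed; a gene with too few values under the stricter filter of 5 RPKM has no value there. For the 7 genes called after sham, the count was 11 with centring on the median gene, 16 with library weights, 4 with the 2 groups fitted alone, 3 without a filter, 4 with the rod covariate and 3 with limma voom, and leaving out 1 library gave 2 to 8. For the 16 called after crush it was 7 with the rod covariate, and 8 to 16 with 1 library left out. For crush in Opn4 cells (1 called) it was 0 with the 2 groups fitted alone, and 1 to 2 with 1 library left out. For crush in HB9 cells (2 called) it was 6 with centring, 4 with the 2 groups alone, 13 with library weights and 5 without both Opn4 libraries that stood apart, and 1 to 4 with 1 library left out. For the difference of effects (1 called) it was 2 with centring, 2 with library weights, 0 without a filter, 0 with a pseudocount of 0.1, and 0 to 2 with 1 library left out. The cause of these shifts was not tested. With the replicate number as a block, 3 genes were called after sham and 15 after crush, and the other 3 counts were 1, 2 and 1. Same-numbered libraries deviated together with correlations of -0.022 to 0.081, and not every library correlated best with its own number, so the numbers are not taken as pairs. Without both Opn4 libraries that stood apart, the median for crush in Opn4 cells was -0.03, against -0.23, and that of the difference of effects was 0.15, against -0.06; the second was 0.08 with centring. Every move of a median stayed under 0.242, the pooled SD between replicates of the log2 median RPKM of the subunit genes. That limit is a spread of single libraries and is close in size to the crush medians of -0.23 and -0.26. Staying under it therefore does not show that the medians were stable. Isoform shares from recovered reads per length equal those from RPKM by construction. Depth limits the low isoforms: Cox6b2 had at most 142 reads and Cox4i2 at most 218 reads in a library.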

Other observations

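Some low isoforms were carried by single libraries. Ndufa4l2 had 69 reads (2.72 RPKM) in HB9 crush replicate 3 and at most 1 read in every other library. Cox7b2, a testis form, was at 3.83 RPKM in Opn4 crush replicate 1, 7.2 RPKM in HB9 crush replicate 2, 8.76 RPKM in HB9 sham replicate 2 and at 0 in the other 9 libraries. Cox4i2 was at 4.61 RPKM in Opn4 crush replicate 1, and at 0 in the other 5 Opn4 libraries, while all 6 HB9 libraries held it.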
